A study of Homo sapiens with 2 samples.

Results

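The antisense long noncoding RNAs described here are 108 genes of HCT116 cells, out of 60623 named genes in the deposited count table. They were chosen by name and by level: a symbol that ends in -AS and a digit, and at least 100 expected counts summed over the control and the knockdown library. Of 1261 rows with such a name, 646 had 0 counts in both libraries, 507 had some counts but under 100, and the remaining 108 (8.56%) are the members. The limit uses the sum of the libraries that are then compared, so the levels of the members are given as a description. HCT116 is an established line of epithelial cells, derived from a carcinoma of the human colon and labelled wild type here. Cells of siControl received a non-specific siRNA, and cells of siKAT7 received one that targets KAT7, both by transfection with Lipofectamine. The sources used here do not give the time after transfection or the number of siRNA duplexes. KAT7 (HBO1) is an enzyme that acetylates histones H3 and H4 in complexes with BRPF or JADE scaffold proteins, and the comparison asked how lowering it changes transcription.

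Antisense RNAs are transcribed from the DNA strand opposite to another gene, whose name they carry. Some start at the same promoter region as the sense gene and run away from it or across its first exon, others start inside the sense gene, and others start beyond its 3′ end and run into it. Many are spliced and polyadenylated like mRNAs, most are present at low levels, and a number of them are degraded quickly in the nucleus by the RNA exosome.

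Each group had 1 library, of 23450326 expected counts in siControl and 23533134 in siKAT7 over the named genes. No value below therefore has a replicate, and no p-value is given. The 95% intervals are exact (Clopper-Pearson) and reflect the error of counting alone, and reads amplified by PCR without molecular identifiers are not independent molecules. KAT7 itself went from 442.94 to 287.22 expected counts, and from 18.2 to 12.7 CPM (CPM being counts scaled to the size of each library), a log2 ratio of -0.52 (-0.74 to -0.31) that left 69.6% of the control level. In the authors' deposited table its log2 fold is -0.63. Of 7 colon epithelial markers, 6 had at least 1 CPM in each library and none was at 0, and their summed level was 11731.7 CPM in siControl and 12410.9 CPM in siKAT7. The summed fibroblast markers came to 31.7 and 31.6 CPM, nearly all of it COL1A1, and those of endothelium to 0.822 and 0.970 CPM. Blood markers came to 80.5 and 90.8 CPM through CD68, while PTPRC and HBB were at 0.

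Promoter windows are printed for CBR3-AS1, ELF3-AS1 and ZEB1-AS1, which had the largest ratios, and for RAB11B-AS1, which went against its sense gene. Those of ELF3 and RAB11B are added to show how closely an antisense start and a sense start can lie together. Each runs from 250 bases before to 50 bases after the RefSeq start on GRCh38.p14, 5′ to 3′ on the strand of the gene named. Capitals mark matches on either strand of 5 motifs. The core promoter element is written TATAAA, the motif read by the trimeric factor NF-Y is written CCAAT, that of AP-1 is written TGACTCA, the cyclic AMP element is written TGACGTCA and the one read by ETS factors is written CCGGAAG. CBR3-AS1 was the highest member by ratio, and its window lies at chr21:36156259-36156558 on the reverse strand. This window is beyond the 3′ end of CBR3 (36134912 to 36146566, forward) and holds no sense start. Another annotated start of CBR3-AS1 lies 39 bases from a CBR3 start. ELF3-AS1 (chr1:202010304-202010603, reverse) and ELF3 (chr1:202010337-202010636, forward) start 234 bases apart and point away from each other, so that 267 bases of their windows are the same DNA. ZEB1-AS1 was the lowest member by ratio, with its window at chr10:31320398-31320697 on the reverse strand and its start 107 bases from the nearest ZEB1 start. RAB11B-AS1 (chr19:8390642-8390941, reverse) starts 331 bases inside RAB11B (chr19:8390110-8390409, forward), so that their 5′ ends overlap.
CBR3-AS1: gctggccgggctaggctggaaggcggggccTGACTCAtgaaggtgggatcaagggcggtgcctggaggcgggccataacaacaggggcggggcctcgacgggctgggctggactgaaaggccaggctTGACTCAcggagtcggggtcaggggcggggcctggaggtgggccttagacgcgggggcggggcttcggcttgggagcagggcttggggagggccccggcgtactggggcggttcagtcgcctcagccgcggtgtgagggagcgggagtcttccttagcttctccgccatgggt
ELF3-AS1: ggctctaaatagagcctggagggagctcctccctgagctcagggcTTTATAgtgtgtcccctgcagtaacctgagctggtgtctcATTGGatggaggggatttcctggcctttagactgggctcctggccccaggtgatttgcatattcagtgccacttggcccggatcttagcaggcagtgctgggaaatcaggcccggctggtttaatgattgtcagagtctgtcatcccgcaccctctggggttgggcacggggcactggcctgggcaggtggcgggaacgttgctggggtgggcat
ELF3: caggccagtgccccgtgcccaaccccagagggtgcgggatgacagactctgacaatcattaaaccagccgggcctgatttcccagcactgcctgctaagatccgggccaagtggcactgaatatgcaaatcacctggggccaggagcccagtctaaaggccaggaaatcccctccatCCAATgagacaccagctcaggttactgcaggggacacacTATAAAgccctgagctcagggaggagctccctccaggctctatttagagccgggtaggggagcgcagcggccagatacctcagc
ZEB1-AS1: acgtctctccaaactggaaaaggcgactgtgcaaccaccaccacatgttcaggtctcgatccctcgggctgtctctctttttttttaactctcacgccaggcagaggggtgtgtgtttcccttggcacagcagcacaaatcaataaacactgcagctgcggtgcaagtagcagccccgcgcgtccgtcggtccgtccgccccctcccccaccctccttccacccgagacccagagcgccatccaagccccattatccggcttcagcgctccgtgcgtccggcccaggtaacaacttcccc
RAB11B-AS1: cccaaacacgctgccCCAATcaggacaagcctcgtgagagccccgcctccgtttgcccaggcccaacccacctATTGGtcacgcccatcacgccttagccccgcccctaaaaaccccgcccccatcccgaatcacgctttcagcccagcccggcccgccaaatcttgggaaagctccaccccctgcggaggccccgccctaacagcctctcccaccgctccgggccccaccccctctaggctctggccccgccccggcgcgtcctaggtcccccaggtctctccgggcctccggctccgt
RAB11B: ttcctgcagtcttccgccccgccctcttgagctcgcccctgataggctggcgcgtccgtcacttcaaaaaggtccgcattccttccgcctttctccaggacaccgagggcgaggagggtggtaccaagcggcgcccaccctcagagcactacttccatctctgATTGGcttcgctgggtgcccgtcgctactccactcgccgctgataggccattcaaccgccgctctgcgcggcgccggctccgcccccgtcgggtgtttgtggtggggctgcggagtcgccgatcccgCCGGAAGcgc
The CBR3-AS1 window holds TGACTCA at -220 and at -123 from its start. The ELF3 window holds TATAAA at -34 and CCAAT at -73, and the same letters appear in the ELF3-AS1 window on the other strand at -205 and -165. The RAB11B-AS1 window holds CCAAT at -235 and, on the other strand, at -177. The RAB11B window holds CCAAT on the other strand at -87 and CCGGAAG at 40. None of the capitalised motifs is in the ZEB1-AS1 window. RefSeq windows were matched by symbol for 80 of the 108 members. Of these, 7.5% held TATAAA, against 11.5% of all 35116 windows, and 66.2% held the GC box GGGCGG, which is not capitalised above, against 45.0%. Shares were closer for CCAAT (36.2% and 34.6%) and TGACTCA (6.25% and 4.95%). The cyclic AMP element was in 5% of member windows and 1.85% of all, and the ETS motif in 16.2% and 10.3%. No motif contains another. A member window held a median of 23 CpG dinucleotides, against 14 over all windows. Members had to pass a limit of counts and the 35116 windows did not, so these contrasts cannot be told apart from the choice by level. Such matches describe letters and not bound sites.

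In siKAT7, 7 antisense RNAs were at least 1.5-fold higher with an interval that excluded 0, and 7 were at least 1.5-fold lower. The higher ones were CBR3-AS1, ELF3-AS1, FAM222A-AS1, ELOA-AS1, UNC5B-AS1, STX18-AS1 and ZNF503-AS2, and the lower ones ZEB1-AS1, RUNDC3A-AS1, TNRC6C-AS1, TNFRSF10A-AS1, RAB11B-AS1, FGD5-AS1 and DHRS4-AS1. This is 6.48% of the members in each direction. The same rule called 2.86% of all 11718 named genes with at least 100 counts higher and 2.82% lower. Among the 7858 of them with no more counts than the highest member (1913.73), it called 3.58% higher and 4.17% lower. Most called members had few counts: 10 of the 14 had under 200 counts summed, a range in which 13.95% of the 43 members were called higher and 9.30% lower. Of all named genes in that range, 8.74% were called higher and 10.7% lower. From 200 counts up, 1 of 65 members (1.54%) was called higher and 3 (4.62%) lower. Of all named genes from 200 counts up to the highest member, 2.30% were called higher and 2.55% lower. Counts were not matched within a range, and the share called depends on them. Against all genes in the same range, the share of members called was above the background in some comparisons and below it in others. No excess in one direction held in both ranges, and few members were called in each.

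As a class the antisense RNAs were centred on no difference. Exactly 54 had a log2 ratio above 0 and 54 below, and the median was -0.0038, against -0.0051 for all genes tested. The middle of the members ran from -0.23 to 0.30 (quartiles), and that of all genes from -0.18 to 0.17. Counting intervals included 0 for 67 members (62.0%), against 63.0% of genes with no more counts than the highest member. The members together held 19438.1 expected counts in siControl (0.0829% of all named counts) and 18761.8 in siKAT7 (0.0797%). After TMM scaling their summed log2 ratio was 0.05 (0.02 to 0.08). Their share of total counts was lower in siKAT7, so the direction of this small ratio depended on the scaling. With scaling to total counts, every member's log2 ratio was about 0.107 lower, and 5 members were called higher and 15 lower in place of 7 and 7. All genes moved with them, to 1.88% called higher and 5.20% lower.

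**Figure D1:**
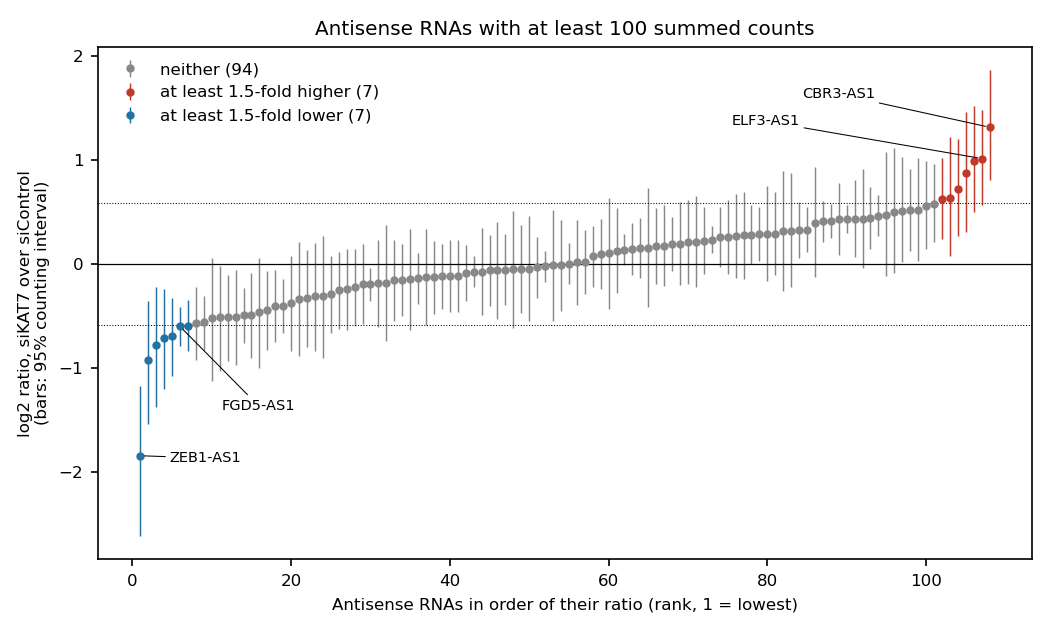
The 108 antisense RNAs in order of their log2 ratio of siKAT7 over siControl (vertical axis, log2 scale; 1 library per group), with 95% counting intervals as bars and 1.5-fold differences as dotted lines. Ratios run from -1.84 (ZEB1-AS1) to 1.31 (CBR3-AS1), 7 members are called in each direction, and most bars cross 0.

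**Figure D2:**
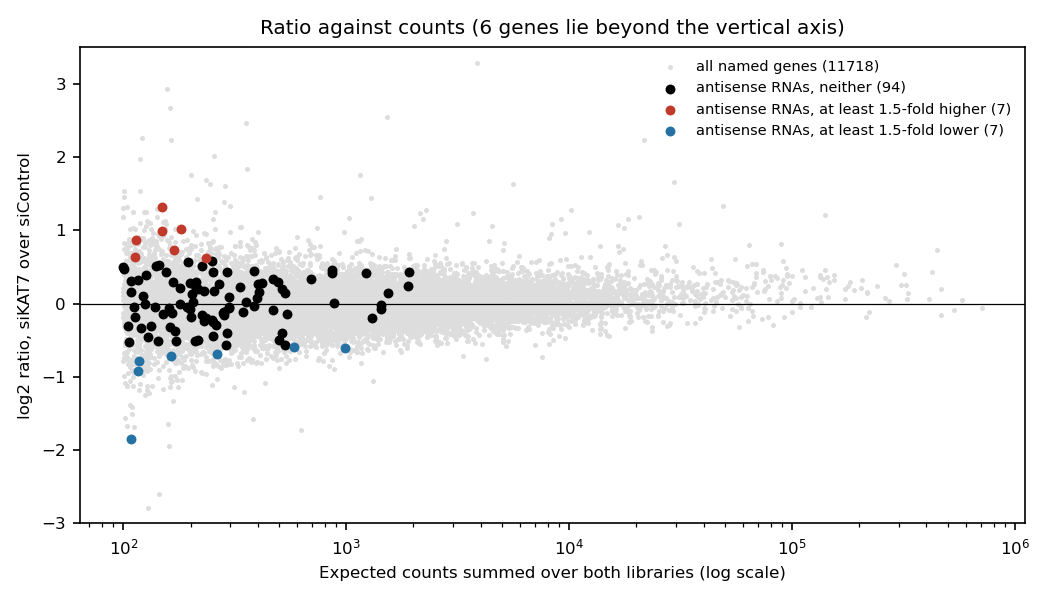
Log2 ratio of siKAT7 over siControl against expected counts summed over both libraries (log scale), for all 11718 named genes with at least 100 counts (grey) and the 108 antisense RNAs (black, or coloured where called). The antisense RNAs lie at the low end of the counts, where the grey cloud is widest, and 10 of the 14 called ones have under 200 counts.

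CBR3-AS1 had the largest higher ratio. Its expected counts were 44.67 in siControl and 105.08 in siKAT7 (1.85 and 4.63 CPM), a 2.49-fold higher level with a log2 ratio of 1.31 (0.81 to 1.86). It lies on the reverse strand of chromosome 21 from 36131767 to 36175815 (GRCh38) and covers all of CBR3, which encodes a carbonyl reductase. CBR3 went from 130.69 to 185.40 counts, a log2 ratio of 0.60, and was the only sense gene of at least 100 counts that was itself called higher. Under that limit FOXD3, with 8 and 34 counts, and ZBED5, with 37 and 55.41, also passed the rule for higher. The antisense ratio was above the sense ratio by 0.72 (0.10 to 1.36) on the log2 scale. Of its exon bases 12.7% lie opposite exons of other genes.

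ELF3-AS1 had 63.02 and 118.69 counts (2.59 CPM in siControl and 5.25 in siKAT7) and a log2 ratio of 1.01 (0.57 to 1.48). ELF3, an ETS transcription factor of epithelial cells, was far more abundant, with 6374.74 and 8353.57 counts, and had a log2 ratio of 0.49. Both RNAs of this pair thus had log2 ratios above 0, the antisense one by 0.53 (0.07 to 0.99) more than the sense one. ELF3 was under 1.5-fold and not called. Counts are per gene, so no single start was measured. ELF3-AS1 runs on towards RNPEP, an aminopeptidase gene with a start 22 bases from an annotated start of ELF3-AS1. RNPEP had 4588.55 and 4357.29 counts and a log2 ratio of 0.03. Reads of ELF3-AS1 that fall in the 23.3% of its exon bases opposite exons of other genes cannot be assigned without the strand.

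FAM222A-AS1 and UNC5B-AS1 are the called members with no exon base opposite another gene's exon, and all of their counts were whole numbers, which is what RSEM gives when it divides no read. FAM222A-AS1 went from 52 to 97 counts, a log2 ratio of 0.99 (0.50 to 1.52), and FAM222A from 292 to 372 (0.45). UNC5B-AS1 went from 66 to 102 counts, or 2.71 to 4.50 CPM, a log2 ratio of 0.73 (0.27 to 1.20). UNC5B, a netrin receptor gene in which UNC5B-AS1 starts, moved the other way, from 2718 to 2155 counts (-0.23). The difference within this pair was 0.96 (0.49 to 1.44).

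ELOA-AS1, named for the gene of elongin A, an elongation factor of RNA polymerase II, had 41.9 and 72.06 counts and a log2 ratio of 0.87 (0.31 to 1.46). ELOA had a log2 ratio of -0.02. As 57.2% of ELOA-AS1 exon bases lie opposite ELOA exons, the highest share among the called members, its counts are uncertain. STX18-AS1 (46.04 to 67 counts, 0.64, 0.08 to 1.22) and ZNF503-AS2 (95.91 to 138.04 counts, 0.62, 0.24 to 1.02) were just past 1.5-fold, and neither was called with total-count scaling. Their sense genes, STX18, which encodes a SNARE protein of the endoplasmic reticulum, and ZNF503, a zinc finger gene, had log2 ratios of 0.12 and 0.26.

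ZEB1-AS1 had the lowest ratio of all members. It went from 86 counts in siControl to 22 in siKAT7, or from 3.53 to 0.970 CPM, a 3.59-fold lower level with a log2 ratio of -1.84 (-2.61 to -1.18). It lies on the reverse strand of chromosome 10 from 31206278 to 31320447. ZEB1, a zinc finger repressor of epithelial genes, was almost silent in both libraries, with 10 and 9 counts, so that the antisense RNA had more counts than its sense gene in each. The ZEB1-AS1 counts were whole numbers.

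FGD5-AS1 was the most abundant of the called members, and its interval is the narrowest among them. It went from 612 to 376 counts, or 25.1 to 16.6 CPM, a log2 ratio of -0.60 (-0.79 to -0.41), with whole counts. FGD5, a guanine nucleotide exchange factor gene into which FGD5-AS1 runs, had 10 counts in each library. FGD5-AS1 starts 77 bases from a start of NR2C2, the gene of an orphan nuclear receptor, on the other strand. NR2C2 went from 204.87 to 160.94 counts, a log2 ratio of -0.25 with an interval of -0.55 to 0.06, and the difference from FGD5-AS1 was -0.35 (-0.72 to 0.01).

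RAB11B-AS1 and DHRS4-AS1 were lower while their sense genes were slightly higher. RAB11B-AS1 went from 167 to 96.01 counts (-0.69, -1.07 to -0.33), and RAB11B, the gene of a small GTPase of recycling endosomes, from 2905 to 3279.99 (0.28, 0.20 to 0.35). The difference within the pair was -0.97 (-1.36 to -0.60). DHRS4-AS1 went from 361.33 to 222.53 counts (-0.59, -0.84 to -0.35) and runs through a cluster of closely similar DHRS4 copies, so that the counting could split reads among them. DHRS4, a short-chain dehydrogenase gene, had a log2 ratio of 0.18, and DHRS4L2, whose start lies 17 bases away, one of 0.14. DHRS4-AS1 was not called with a prior count of 5 (-0.58).

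The other lower members had few counts. TNRC6C-AS1 went from 76.26 to 41.09 (-0.78, -1.37 to -0.22), shares exon bases with TMC6 on its own strand, and differed by -1.04 (-1.66 to -0.44) from TNRC6C, a gene of the microRNA silencing complex. TNFRSF10A-AS1 went from 104.31 to 58.74 (-0.71, -1.20 to -0.24), and TNFRSF10A, a TRAIL receptor gene, from 1000.67 to 834.26 (-0.16). RUNDC3A-AS1 went from 78 to 38.46 (-0.93, -1.53 to -0.36), and RUNDC3A had 37 and 40 counts. At 2-fold, 2 members remained higher (CBR3-AS1 and ELF3-AS1) and 1 lower (ZEB1-AS1).

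**Figure D3:**
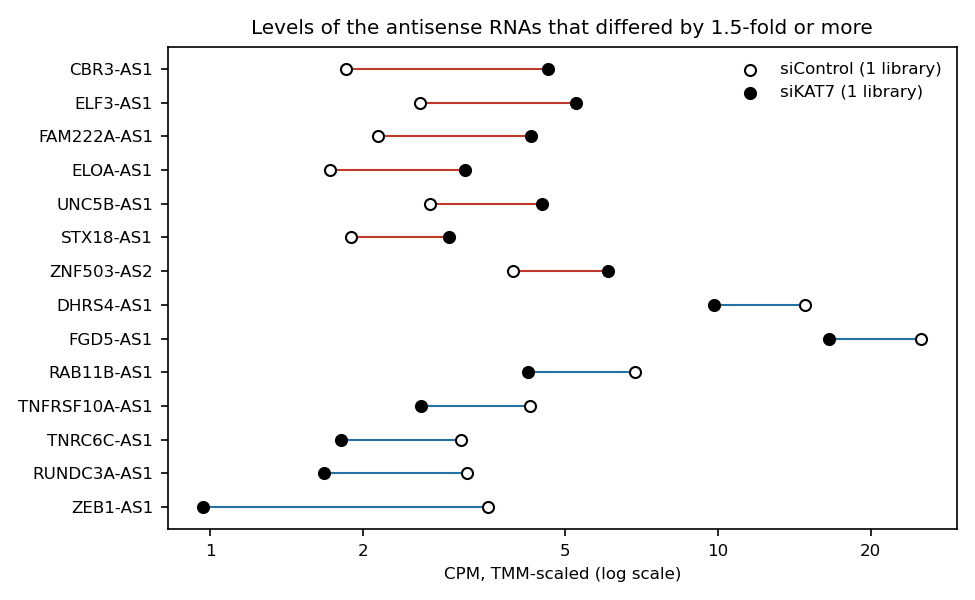
CPM (TMM-scaled, log axis) of the 14 called antisense RNAs in siControl (open) and siKAT7 (filled), 1 library each, with a line joining the libraries (red where higher in siKAT7, blue where lower). All but DHRS4-AS1 and FGD5-AS1 lie under 10 CPM in both libraries, and ZEB1-AS1 has the longest line, from 3.53 to 0.970 CPM.

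A further 27 members had an interval that excluded 0 without reaching 1.5-fold, 16 above 0 and 11 below. Several with many counts are given here, chosen with their values in view where no rule took them. One was EPB41L4A-AS1, which hosts the small nucleolar RNA SNORA13 and went from 848.36 to 1065.37 counts (0.43, 0.30 to 0.56). SLC9A3-AS1 went from 548.91 to 680.72 (0.41, 0.25 to 0.58), TPT1-AS1 from 383.99 to 476.02 (0.41, 0.21 to 0.61) and MIF-AS1 from 378.79 to 487.44 (0.46, 0.27 to 0.66). Of the exon bases of MIF-AS1, 46.5% lie opposite exons of other genes, and MIF had 26005.6 counts in siControl and 29500.3 in siKAT7. Below 0 stood NOP14-AS1, from 324.69 to 205.43 (-0.56, -0.82 to -0.31), MRPL20-AS1, from 301.07 to 199.01 (-0.49, -0.76 to -0.23), and NUTM2B-AS1, from 302.5 to 212.63 (-0.40, -0.66 to -0.14). The median width of an interval was 1.02 for members under 200 counts, which 10 of the 14 called ones are, and 0.32 for the 12 members with the most counts. MRPL20-AS1 and NOP14-AS1 were called lower with total-count scaling. All 94 members that were not called ran between log2 ratios of -0.57 and 0.58.

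None of the 10 antisense RNAs most abundant per kilobase of gene model was called, although the intervals of MIF-AS1, EPB41L4A-AS1, URB1-AS1, ADIRF-AS1 and PXN-AS1 excluded 0. PITPNA-AS1 had the highest level, 19.7 CPM per kb in siControl and 21.8 in siKAT7, followed by URB1-AS1 with 15.9 and 19.95 and FOXD1-AS1 with 14.6 and 13.4. UPK1A-AS1 had 12.9 and 14.7 CPM per kb, MAPKAPK5-AS1 a mean of 13.3, and EP300-AS1 13.8 and 12.4. MIF-AS1 (10.6 and 14.6), EPB41L4A-AS1 (9.92 and 13.4), PXN-AS1 (11.7 and 10.3) and ADIRF-AS1 (9.74 and 11.5) completed the 10 highest. The order of neighbours was not the same in both libraries: UPK1A-AS1 stood below FOXD1-AS1 and EP300-AS1 in siControl and above them in siKAT7. PITPNA-AS1 and FOXD1-AS1 have 69.9% and 100% of their exon bases opposite exons of other genes, so their levels may hold sense reads if strand was not used in the counting.

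The sense gene had at least 100 counts for 81 members, which form 81 pairs on 80 sense genes, because ZNF503 has 2 antisense RNAs among the members. Of the other members, 26 had a sense gene under 100 counts, 2 of these at 0 in both libraries, and RPARP-AS1 had none in the table. The antisense RNA had fewer counts than the sense gene in all but 10 pairs. The difference within a pair does not depend on how the libraries are scaled. Its interval lay above 0 in 15 pairs (antisense higher relative to sense), below 0 in 12, and included 0 in 54. No such share was taken for unrelated gene pairs of like counts, so these numbers cannot be read as a trait of antisense pairs. Of the 27 pairs with a difference, 17 had antisense and sense ratios of opposite sign. Choosing pairs by their difference favours opposite signs, and over all 81 pairs 44 had the same sign.

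Antisense and sense ratios were only loosely related. Both were above 0 in 26 pairs and both below in 18, while the antisense RNA alone was above 0 in 16 and the sense gene alone in 21. Across the 81 pairs Pearson's r was 0.21 and Spearman's rho 0.16, given as a description, since all pairs share the same libraries and antisense and sense models share exon bases in many pairs. The sense genes varied less than the members (SD of the log2 ratio 0.25 against 0.45 over all members) and had more counts. Of the sense genes in pairs, CBR3 alone was called higher and OTUD6B alone lower, and only in the CBR3 pair were both RNAs called.

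**Figure D4:**
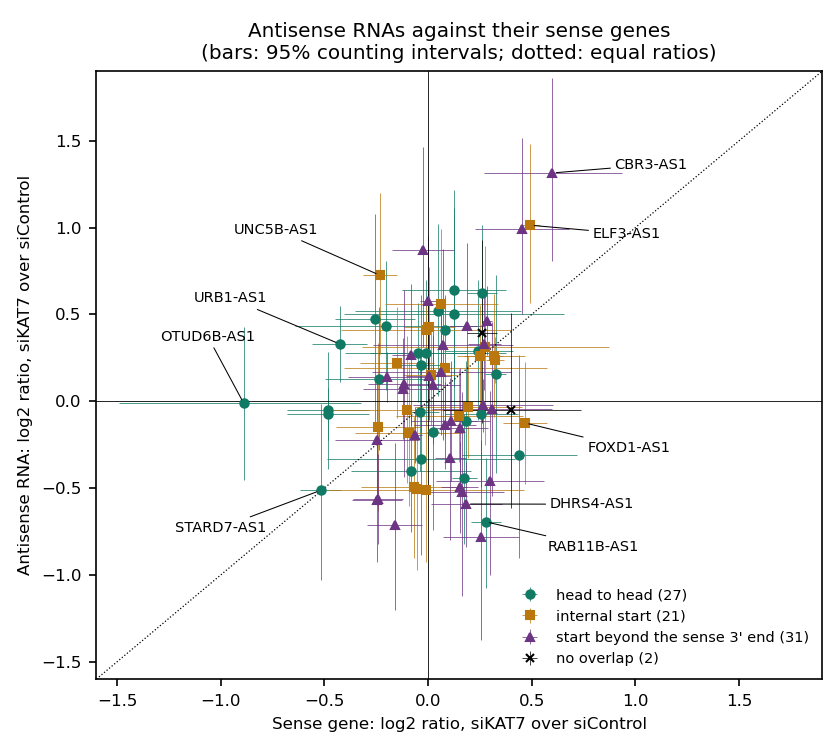
Log2 ratio of siKAT7 over siControl of the antisense RNA (vertical) against that of its sense gene (horizontal) for 81 pairs, by layout, with 95% counting intervals as bars and equal ratios on the dotted line. Points spread more along the vertical axis than the horizontal one, CBR3-AS1 and ELF3-AS1 sit in the upper right with their sense genes, and RAB11B-AS1, DHRS4-AS1, UNC5B-AS1 and URB1-AS1 lie in quadrants of opposite sign.

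In the pair of URB1 and URB1-AS1 the RNAs went in opposite directions and share no exon bases. URB1-AS1 lies on the forward strand of chromosome 21 from 32393130 to 32393960, starts 104 bases from URB1, a ribosome biogenesis gene, and has no exon base opposite it. It went from 321 to 376 counts (0.33, 0.11 to 0.55), while URB1 went from 1151 to 798 (-0.43, -0.56 to -0.29). The difference was 0.76 (0.50 to 1.01). All these counts were whole.

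In several pairs it was the sense gene that moved. MAPKAPK5-AS1 had 762.03 and 674.98 counts (-0.07), and MAPKAPK5, a protein kinase gene, 537.95 and 359.02 (-0.48), a difference of 0.41 (0.16 to 0.66) between models that share 792 exon bases. RNASEH1-AS1 had 157 and 141 counts (-0.05), and RNASEH1, which degrades RNA in RNA-DNA hybrids, 522.5 and 347.89 (-0.48). OTUD6B-AS1 had 93 and 86 counts (-0.01), and OTUD6B, a deubiquitinase gene whose start lies 7 bases away, 78 and 39 (-0.89, -1.49 to -0.33). OIP5-AS1 had 762.42 and 782.47 counts (0.14), and OIP5, a centromere gene, 516.04 and 418.75 (-0.20). Of the 15 pairs with the antisense RNA above the sense gene, 5 were of this kind, with an antisense interval that included 0 and a sense interval below 0. MAPKAPK5-AS1 and OIP5-AS1 are on the list of studied RNAs set for naming, and the other pairs here were picked with their values in view.

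Among the 12 pairs with the antisense RNA below the sense gene, 8 had a sense interval above 0. Beside RAB11B, DHRS4 and TNRC6C, MRPL20, a gene of the mitochondrial ribosome, went from 2033.93 to 2105.99 counts (0.15), and the difference of MRPL20-AS1 from it was -0.65 (-0.93 to -0.37). TMEM147-AS1 went from 149 to 102 counts, and TMEM147, an endoplasmic reticulum membrane protein gene, from 4311 to 4530, a difference of -0.62 (-1.001 to -0.24). FOXD1-AS1 went from 151.22 to 129.06 counts, and FOXD1, a forkhead transcription factor gene, from 1269.78 to 1634.94, a difference of -0.59 (-0.96 to -0.23) between RNAs whose exons overlap over the full length of the antisense model. PCBP1-AS1 showed the reverse, with 103.98 and 144.83 counts (0.58) against 10359.5 and 9649.18 (0.00) for PCBP1, a poly(C)-binding protein gene, a difference of 0.58 (0.21 to 0.96).

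Some pairs had ratios of the same sign. STARD7-AS1 and STARD7, a lipid transfer protein gene, had log2 ratios of -0.51 (-1.03 to -0.01) and -0.52, and in the ADIRF pair they were 0.24 and 0.32. In the VASH1 and NOP14 pairs both RNAs were below 0: VASH1-AS1 had -0.57 and VASH1 -0.25, NOP14-AS1 had -0.56 and NOP14 -0.24. These pairs were also named after their values were seen. VASH1-AS1 shares exon bases with ANGEL1 on its own strand, and ANGEL1 was itself called lower (-0.64). Of the exon bases of VASH1-AS1, 56.6% lie opposite exons of other genes, so its counts are uncertain.

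By gene ends in GENCODE 29, 33 members lie head to head with the sense gene (starts at most 1000 bases apart), 31 start inside it, 41 start beyond its 3′ end and overlap it, and 2 do neither. The median log2 ratio was 0.15 for the head-to-head members, 0.02 for those starting inside and -0.11 for those starting beyond the 3′ end. The numbers called higher and lower were 2 and 1, 2 and 2, and 3 and 4. Among all named genes of at least 100 counts, 2.86% were called higher and 2.82% lower. The layouts were not matched for counts, and few members were called in each. In the 27 head-to-head pairs the antisense RNA lay above the sense gene in 7 and below it in 3, in the 21 pairs with an internal start in 4 and 2, and in the 31 pairs starting beyond the 3′ end in 4 and 7. Pearson's r between antisense and sense ratios was 0.03, 0.29 and 0.38 in that order. The quartiles of the layout groups overlapped (-0.11 to 0.33, -0.16 to 0.29 and -0.33 to 0.21), and no test of the groups was made. Several members, CBR3-AS1, ELF3-AS1 and ZEB1-AS1 among them, have one transcript start close to a sense start although their gene ends place them elsewhere. By any transcript start, 61 members lie within 1000 bases of a sense start, and 4 of them were called higher and 4 lower. Of the 46 with no such start, 3 were called in each direction.

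A protein-coding gene other than the namesake had a start within 1000 bases on the other strand for 25 members. In 22 pairs with such a gene of at least 100 counts, the signs were alike in 9, and the interval of the difference lay above 0 in 3 and below 0 in 4. CBR3-AS1 lay 1.44 above DOP1B (0.90 to 1.99), whose start is 446 bases away. NOP14-AS1 lay below MFSD10, a transporter gene with a start 40 bases away and a log2 ratio of 0.05, by a difference of -0.61 (-0.88 to -0.35). PXN-AS1 had 721.83 and 587.98 counts (-0.19), and RPLP0, a ribosomal stalk gene 56 bases away, had a log2 ratio of 0.15.

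The sources used here do not say whether the counting used strand, and 86 members have exon bases opposite exons of other genes. Of these 5 were called higher (5.81%) and 7 lower (8.14%). Of the 22 without such overlap, 2 were called higher (FAM222A-AS1 and UNC5B-AS1) and 0 lower. Among all named genes of at least 100 counts, 2.86% were called higher and 2.82% lower, and the groups were not matched for counts. The part of sense reads in the members' counts was not tested.

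Of a list of 38 symbols of studied RNAs, most with an antisense name, 31 were among the rows with such a name, and 12 were members. Beside ZEB1-AS1 and FGD5-AS1, NNT-AS1 had 60.31 and 79.73 counts (0.51, 0.02 to 1.02), and GAS6-AS1 93.12 and 69.04 (-0.33, -0.80 to 0.14). The other 8, OIP5-AS1, SBF2-AS1, FOXD2-AS1, MAPKAPK5-AS1, LOXL1-AS1, VPS9D1-AS1, SLC16A1-AS1 and UBL7-AS1, had intervals that included 0. OIP5-AS1, which is known to bind the RNA-binding protein HuR, was among the most counted of them, with an interval of -0.01 to 0.29. Below the limit of 100 counts, the HOX cluster antisense RNAs were low: HOXC-AS1 had 27 and 48 counts (0.92, 0.22 to 1.67), HOXA-AS2 25 and 12 (-0.93, -2.08 to 0.09) and HOXA-AS3 25.48 and 11.6. CDKN2B-AS1 had 12 and 14.46 counts and AFAP1-AS1 1 and 0.

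The members just inside the limit were ST3GAL6-AS1 with 43 and 57 counts (0.50), SLC16A1-AS1 with 44 and 57.05 (0.47) and YTHDF3-AS1 with 60 and 45 (-0.31). Just outside it stood SCAMP1-AS1 with 46 and 53.34 counts (0.30), MATN1-AS1 with 56.84 and 40.17 (-0.40) and TIPARP-AS1 with 52 and 45 (-0.11). The intervals of all 6 included 0.

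Genes that end or degrade short-lived nuclear RNAs were also centred on no difference. They came from a list of 32 symbols that includes older aliases of listed genes, and 29 symbols matched. Their log2 ratios were above 0 for 14 and below 0 for 15, with a median of 0.00. Of the exosome subunits, EXOSC4 was at 0.31 (0.22 to 0.40) and EXOSC2 at -0.26 (-0.42 to -0.10), and the exosome cofactor gene MPHOSPH6 at -0.47 (-0.72 to -0.22). The helicase gene MTREX was at 0.13 (-0.13 to 0.40), and RBM7 of the nuclear exosome targeting complex at 0.50 (0.19 to 0.81). PABPN1, a nuclear poly(A)-binding protein gene, was the one gene called higher, at 700.38 and 1573.37 counts, and none was called lower. PABPN1 shares exons with the readthrough gene BCL2L2-PABPN1, which had 3330.59 and 2889.98 counts, and the sum of both had a log2 ratio of 0.25 (0.19 to 0.31), so the PABPN1 value is uncertain.

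Other noncoding classes were taken at the same limit of counts. Of 56 genes named LINC, 6 were called higher and 2 lower, with a median log2 ratio of 0.12, and of 19 divergent transcripts named -DT, 2 were called higher and 1 lower, with a median of -0.04. Of 21 genes named SNHG, which host small nucleolar RNAs, 16 were above 0, 1 was called higher and 0 lower, and the median was 0.24. The 1 intronic transcript named -IT was called lower (-0.64). Protein-coding genes, 10983 in number, had a median of -0.01, and 2.14% of them were called higher and 2.66% lower. Of all named genes at that limit, 2.86% were called higher and 2.82% lower. The classes were not matched for counts, and the noncoding ones hold few genes.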

How the data were processed

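Gene expression was measured by RNA-seq of total RNA in 2 HCT116 cultures, 1 library each. The submitters' processing notes name RSEM 1.3.3 and the build GRCh38.p13, and, per those notes and the values, the deposited values are expected counts per gene, not normalized. The sources used here do not give the aligner, annotation release, strand setting or poly(A) selection. The authors' deposited table also gives a ratio (fold) and its log2 per gene. Of 60954 rows, 331 carry no gene name (1.11% of counts in siControl, 1.67% in siKAT7) and stayed out. Both count columns are repeated with 0 differing cells and were used once.

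Expected counts were rounded, and libraries were scaled with edgeR 4.0.16 (TMM) in R 4.3.3 (factors 1.04 for siControl, 0.964 for siKAT7). Log2 ratios used CPM with a prior count of 0.5. A gene was called at 1.5-fold or more with a 95% interval that excluded 0. The difference within a pair is the log2 odds ratio of the counts with its exact conditional interval (scipy 1.17.1). Positions and overlaps came from GENCODE 29 (all 108 members found), whose models differ in length from the deposited ones for some members. Promoter windows came from RefSeq on GRCh38.p14. On counts simulated for this comparison over 11718 genes, 100% of genes changed by a log2 ratio of 1.5 and 100% of those changed by 2.5 were recovered, 40 of 11518 unchanged genes were called, and 95.0% of their intervals included 0. The simulation holds no spread between cultures. Its planted changes fell on genes of all counts and exceed the ratios of all called members but ZEB1-AS1. Recovery near the 1.5-fold limit was thus not tested.

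The members and lists were chosen with earlier results of these data known. Named were all called members and their sense genes, the 10 highest per kilobase, 3 on each side of the count limit, the 10 pairs whose difference had the interval bound nearest 0 farthest from 0, KAT7 and measured members of a list of studied antisense RNAs. Other named genes were chosen after their values were seen, as were the comparison within ranges of counts and that with neighbouring genes other than the namesake. Alternatives were other scalings (total counts, DESeq2 1.42.0 size factors), a prior count of 5, other count and fold limits, a 99% interval, members with whole counts or without exon overlap, and the authors' folds.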

Additional observations from a re-analysis of the deposited data

How the results depend on the processing

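No paired analysis was possible because each group had 1 library. With total-count scaling, 5 members were higher and 15 lower and the median log2 ratio was -0.11, while the authors' folds, taken without an interval from the authors' deposited table, also gave 15 lower. DESeq2 size factors changed no call. At 2-fold, 2 members were higher and 1 lower. The calls rested on low counts: 14 were higher and 11 lower of 168 antisense RNAs with at least 50 counts. They were 36 and 34 of 608 with at least 1 count, and 16 and 11 of 179 with a mean of at least 1 CPM. At 300 counts or more, 0 were higher and 2 lower of 31, with a median of 0.14. The share of all named genes at these limits is not given here. All named genes were also called more often from 100 to under 200 counts (8.74% higher, 10.7% lower) than from 200 counts up to the highest member (2.30% and 2.55%). Among the 29 members with whole counts 2 were higher and 2 lower, and among the 22 with no exon overlap with the other strand 2 were higher and 0 lower, with a median of 0.10. Fewer genes were tested in these subsets.

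Pearson's r between antisense and sense ratios, 0.21 over 81 pairs, was 0.0823 in the 21 pairs with at least 300 counts in each gene, 0.0917 in the 20 pairs whose exons do not overlap each other and 0.0157 in the 16 with whole counts in both genes. The cause was not tested. The pairs with differing ratios, 27 in all, numbered 8, 5 and 6 in those subsets, 13 with a 99% interval and 16 at 1.5-fold or more. The log2 ratios of 38 named members under total-count scaling, DESeq2 size factors and a prior count of 5, 114 values in all, stayed within each member's own counting interval, and 0 turned a call to the other direction. Of the named members, MRPL20-AS1 became called lower (-0.60) and STX18-AS1 (0.53) and ZNF503-AS2 (0.52) lost the call with total-count scaling, and DHRS4-AS1 (-0.58) lost it with a prior count of 5. Depth limits the 43 members with under 200 counts, whose intervals had a median width of 1.02.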
